A study of Homo sapiens with 12 samples.

Results

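The 3 libraries of DROSHA-knockout HCT116 cells that received the DROSHA mutant m4 were set against 3 libraries of the same cells that received wild-type DROSHA, 6 of the 12 small RNA libraries of the series. HCT116 is a human colorectal carcinoma line. Both groups lacked the cells' own DROSHA, and both received 4.5 µg of the plasmid pXC-NLS-DG4 beside 4.5 µg of a pCK plasmid that coded for wild-type DROSHA or for m4. A group with an empty pCK plasmid and a group with a belt-deleted DROSHA, each of 3 libraries, served as baseline and as a second mutant. What m4 changes in the protein, what DG4 codes for, whether the knockout line is 1 clone and whether the numbered repeats are separate cultures are not stated in the labels, so p-values measure the spread between these libraries. Small RNA reads do not report the amount of DROSHA protein, so the levels of wild-type protein and m4 in the cells are not known here.

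DROSHA is an RNase III enzyme that, with its partner DGCR8, cuts hairpins out of primary miRNA transcripts in the nucleus. DICER then trims the hairpin in the cytoplasm to a duplex, and one arm (5p or 3p) is usually kept in an Argonaute protein, where bases 2 to 8 of the mature miRNA, the seed, pair with target mRNAs. A few hairpins bypass DROSHA, among them miR-320 and miR-484, whose hairpin ends are set by transcription, and mirtrons such as miR-877, miR-1224 and miR-1226, whose ends are set by splicing.

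The table held 359390, 217141 and 277903 reads for wild type replicates 1, 2 and 3, and 132667, 298695 and 139200 for m4. Levels below are scaled reads: counts divided by a size factor from 5 DROSHA-independent features. Their log2 changes from wild type to m4 were -0.07 for miR-320, -0.08 for miR-484, 0.01 for miR-877, 0.03 for miR-1226 and 0.69 for miR-1224. The m4 libraries differed among themselves in these features: miR-320 stood at 67965, 153728 and 76448 scaled reads in m4 replicates 1, 2 and 3, against 111265, 87502 and 114091 with wild type. Replicate 2 was the deepest m4 library and stood apart in its miR-320 to miR-484 ratio, 8.26 on the log2 scale against 6.90 and 7.09, with wild type at 7.28 to 7.68. Of 13 miRNAs that mark other cell types 8 were in the table. Their summed level ran from 478.9 to 700.4 scaled reads with wild type and from 327.3 to 628.3 with m4. The neuronal miR-124-3p, the muscle miRNAs miR-133a-3p and miR-206 and the blood miRNAs miR-142-3p and miR-223-3p had no line in the table. The smooth muscle miR-145-5p was in the table and had no reads with m4.

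The sequences behind the main contrast are given first, from RefSeq on GRCh38.p14, with the seed in capitals. The first set holds the miRNAs with the largest called falls among those with a mean of at least 100 scaled reads in the higher group, and the second those that lost least among DROSHA-responsive miRNAs with a mean of at least 100 with wild type or m4; miR-222-3p is placed beside miR-221-3p because the seeds are the same.
miR-30a-5p: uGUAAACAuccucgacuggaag
miR-30e-5p: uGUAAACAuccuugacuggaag
let-7i-5p: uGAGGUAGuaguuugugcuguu
miR-99b-3p: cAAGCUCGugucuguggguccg
miR-378a-3p: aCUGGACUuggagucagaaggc
miR-378c: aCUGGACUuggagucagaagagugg
miR-21-5p: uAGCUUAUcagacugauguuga
miR-221-3p: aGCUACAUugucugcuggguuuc
miR-222-3p: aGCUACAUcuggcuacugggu

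Above the same floor of 100 scaled reads, the responsive miRNAs that lost least were miR-200c-3p, miR-320d, both arms of miR-27a, miR-423-5p, miR-181a-5p, let-7a-5p and miR-125a-5p. Of these, miR-200c-3p and miR-320d were responsive to the belt deletion only: wild type gave them no called gain over the empty plasmid to lose. let-7a-5p carries the seed of let-7i-5p and lies in this second set.
miR-27a-5p: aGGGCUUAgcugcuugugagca
miR-27a-3p: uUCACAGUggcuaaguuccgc
miR-200c-3p: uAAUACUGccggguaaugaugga
miR-320d: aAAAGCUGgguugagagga
miR-423-5p: uGAGGGGCagagagcgagacuuu
miR-181a-5p: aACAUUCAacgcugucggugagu
let-7a-5p: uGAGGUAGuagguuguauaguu
miR-125a-5p: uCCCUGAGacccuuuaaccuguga

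Output was lower with m4 for a large part of the miRNAs that depend on DROSHA, by amounts that ran from almost nothing to over 20-fold. Of 318 miRNAs tested with edgeR's quasi-likelihood test, 114 were lower with m4 (35.8%) and 12 were higher (3.77%), at a Benjamini-Hochberg adjusted p under 0.05. The 318 are those of 1277 in the table that passed a filter on low counts, and a scarce miRNA could pass it through the group in which it was high. Of the 114, 70 fell by at least 4-fold and 31 by at least 8-fold. The 3 m4 libraries lay below all 3 wild-type libraries for 113 miRNAs (35.5%) and above them for 25 (7.86%). The split of calls rested on the scaling: with TMM 99 were lower and 42 higher, with DESeq2 size factors 98 and 38, and with total counts 60 and 133, as the median change of all miRNAs shifted by 0.20, 0.18 and 1.02 on the log2 scale.

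miRNAs were called DROSHA-responsive where belt-deleted DROSHA gave more reads than the empty plasmid, a contrast that uses neither wild-type nor m4 libraries (141 of 318, 44.3%). Against wild-type DROSHA in place of the belt deletion the count over empty was 142 (44.7%). Of these 141, 111 were lower with m4 than with wild type, 0 were higher and 30 did not pass edgeR's test, and their median log2 change was -1.93, against -0.25 over all 318. DESeq2 called 104 lower and 0 higher, and at an unadjusted p under 0.05 edgeR gave 115 lower and 0 higher. The quartiles of the responsive set were -2.68 and -1.17. Of the other 177 miRNAs 3 were lower (miR-10a-3p, miR-181b-5p and miR-151a-5p) and 12 higher, with a median of 0.35. For 135 miRNAs that rose over empty with both wild-type and belt-deleted DROSHA, the gain kept with m4 was computed as m4 minus empty over wild type minus empty. These were picked in part for being high with wild type, which also sets the denominator, so the kept shares may be too low. Of the 141 responsive miRNAs 8 had a log2 change above 0, against 3 of these 135. The median miRNA kept 20.002% of the wild-type gain, with quartiles of 9.99% and 36.4%; 34 kept under 10%, 83 kept 10% to 50% and 18 kept 50% or more. m4 was not without output: 130 miRNAs were higher with m4 than with the empty plasmid (40.9%) and 3 were lower (0.943%).

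**Figure D1:**
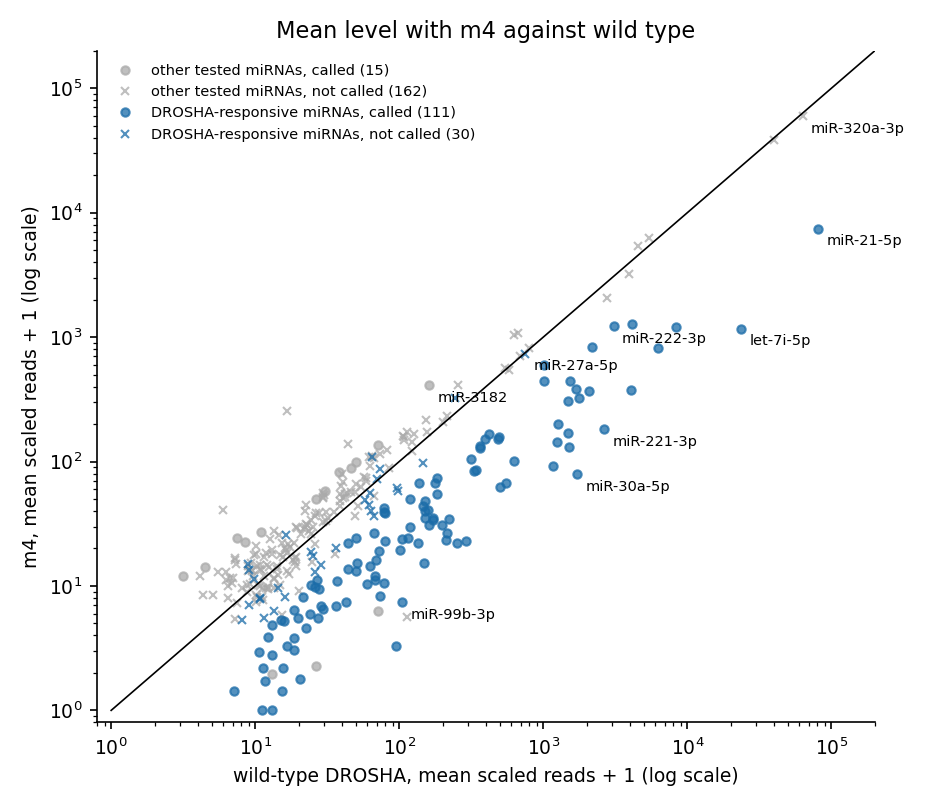
Mean scaled reads + 1 of each of the 318 tested miRNAs with wild-type DROSHA (horizontal, log scale) and with m4 (vertical, log scale); blue points are DROSHA-responsive, grey ones are not, circles passed the test and crosses did not, and the line marks equal levels. Most blue points lie below the line by different distances, with let-7i-5p and miR-30a-5p far below it and miR-27a-5p on it.

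The largest fall among miRNAs with at least 100 scaled reads was that of miR-30a-5p, a member of a family known for roles in differentiation and autophagy. It had 1359, 2529 and 1263 scaled reads with wild type and 64.4, 66.5 and 103.6 with m4, a log2 change of -4.46 (SE 0.37, edgeR adjusted p = 3.87e-16). Every m4 library was thus below every wild-type library, and still above the empty plasmid, where the values were 12.8, 22.3 and 12.6. Its hairpin lies in an intron of LINC00472 on the minus strand at chr6:71403551-71403621; both arms are in capitals.
MIR30A: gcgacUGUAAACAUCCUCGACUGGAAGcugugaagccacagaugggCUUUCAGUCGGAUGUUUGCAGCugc

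The next largest fall was that of let-7i-5p; let-7 miRNAs restrain growth and developmental genes. It had 29934, 24201 and 16381 scaled reads with wild type and 772.7, 1282 and 1456 with m4, a log2 change of -4.33 (SE 0.37, edgeR adjusted p = 8.8e-16). With the belt deletion it had 21623, 22513 and 18072, which overlapped wild type, so that the m4 libraries alone were low among the 3 DROSHA groups. It kept 3.60% of its gain over empty. Its hairpin lies in an intron of AC048341.1 on the plus strand at chr12:62603686-62603769, with both arms in capitals.
MIRLET7I: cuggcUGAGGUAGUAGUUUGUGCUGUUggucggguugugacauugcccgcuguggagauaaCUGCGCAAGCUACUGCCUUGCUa

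miR-21-5p, a growth-promoting miRNA that is abundant in many tumours, was the most abundant DROSHA-responsive miRNA with wild type. It had 92757, 102758 and 47335 scaled reads with wild type, 5666, 7178 and 9495 with m4, and 2466, 1780 and 1912 with the empty plasmid. The groups did not overlap, and the log2 change from wild type to m4 was -3.44 (SE 0.37, edgeR adjusted p = 3.99e-12), which left 6.84% of the gain. Its hairpin lies in an exon of VMP1 at chr17:59841266-59841337.

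miR-151a-3p, which comes from a repeat-derived hairpin, went from 4966, 4515 and 2752 scaled reads with wild type to 245.8, 417.6 and 454.3 with m4 (log2 -3.45, SE 0.36). miR-378a-3p, encoded in an intron of PPARGC1B and linked to mitochondrial metabolism, went from 1585, 1925 and 986.0 to 92.3, 134.0 and 162.5 (log2 -3.53, SE 0.35). miR-378c, whose sequence is near-identical so that reads may be divided between the pair, went from 1184, 1543 and 758.4 to 74.0, 82.2 and 115.2 (log2 -3.68, SE 0.35). All 3 fell by over 8-fold and without overlap. miR-30e-5p went from 304.4, 390.3 and 174.7 to 23.6, 12.9 and 29.4 (log2 -3.72, SE 0.41), and miR-99b-3p from 108.2, 122.3 and 78.9 to 2.15, 5.54 and 11.5 (log2 -4.03, SE 0.46). The same 10 miRNAs, these together with both arms of miR-221, were called lower in each of the 7 scalings and in each fit without 1 m4 or wild-type library; miR-941 and miR-93-5p stood just outside the 10, at -3.39 and -3.22.

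**Figure D2:**
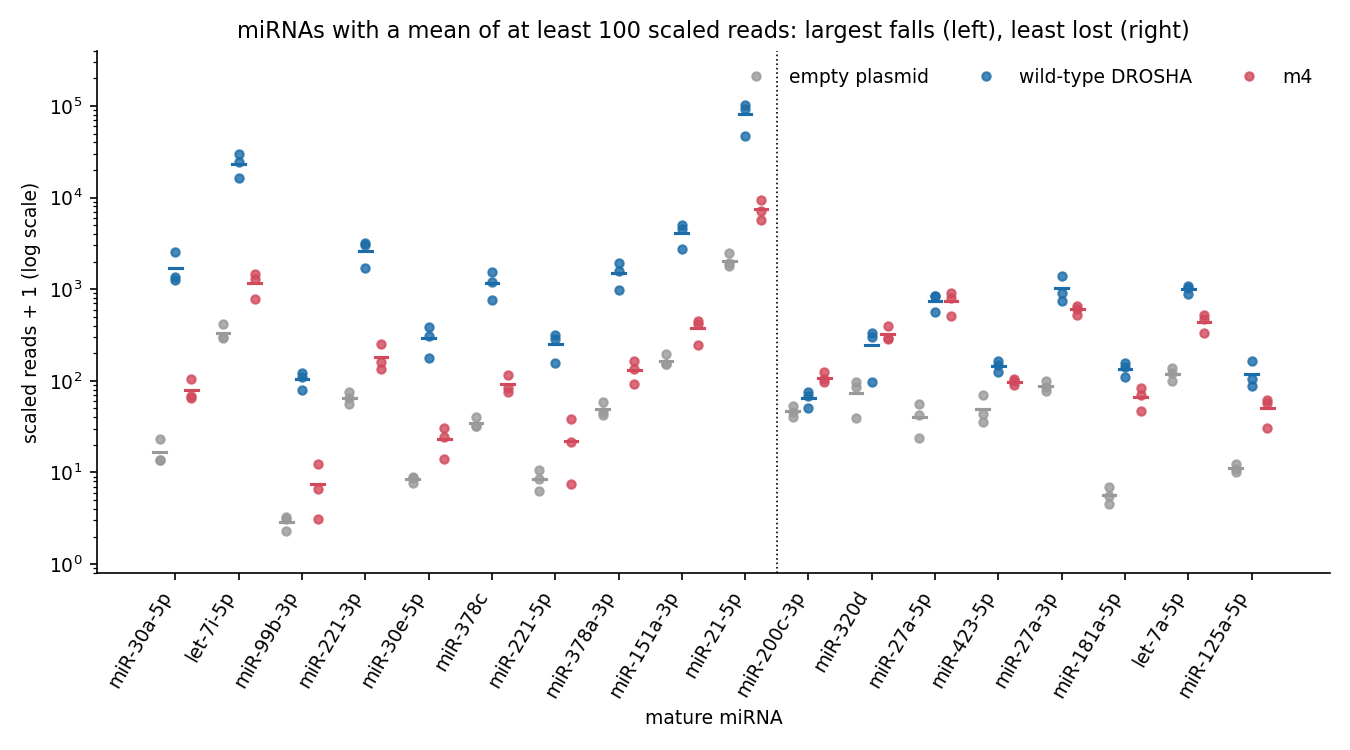
Scaled reads + 1 (log scale) of the 10 largest called falls (left of the dotted line) and the 8 DROSHA-responsive miRNAs that lost least (right), both among miRNAs with a mean of at least 100 scaled reads, each point 1 library and each short line the mean of 3, with empty plasmid in grey, wild-type DROSHA in blue and m4 in red. On the left the red means lie between the grey and blue means; on the right miR-27a-5p has red and blue points at the same height.

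Among the other abundant miRNAs with wild type, miR-7-5p, known for restraining EGFR signalling, had 10460, 9537 and 5015 scaled reads with wild type and 930.4, 1116 and 1576 with m4 (log2 -2.79, SE 0.34). miR-10a-5p, encoded in the HOXB region, had 7343, 7631 and 3683 with wild type and 608.5, 794.6 and 1047 with m4 (log2 -2.93, SE 0.35). miR-100-5p, a relative of miR-10a in sequence, had 4378, 5240 and 2754 with wild type and 846.7, 1252 and 1734 with m4 (log2 -1.69, SE 0.34). Their m4 libraries lay below all wild-type libraries, and miR-7-5p, miR-10a-5p and miR-100-5p kept 11.1%, 12.2% and 24.8% of the gain. The remaining abundant miRNAs did not pass the test: miR-320a-3p (59513 ± 28154 scaled reads with m4, 63039 ± 8268 with wild type, SD, n = 3), miR-320b, miR-3615 (log2 0.20) and miR-7706 (log2 0.25). With total counts as the scaling, miR-320a-3p, miR-320b, miR-3615 and miR-7706 were called higher.

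At the other end stood DROSHA-responsive miRNAs whose m4 and wild-type levels were close. miR-27a-5p, the usually minor arm of a hairpin in the miR-23a cluster, had 844.3, 832.9 and 558.9 scaled reads with wild type and 506.5, 797.4 and 903.4 with m4. These ranges overlapped, and the log2 change was -0.02 (SE 0.32, edgeR adjusted p = 0.967), although the empty plasmid gave 22.6, 54.9 and 41.8. It kept 98.6% of the gain over empty, and with total counts its log2 change was 1.01. miR-27a-3p from the other arm, an adipogenesis-linked miRNA, had 1395, 746.5 and 909.4 with wild type and 662.1, 525.7 and 611.7 with m4. Its groups did not overlap and its log2 change was -0.76 (SE 0.31, edgeR adjusted p = 0.0457), a call that was lost in 9 alternatives, among them TMM scaling (-0.53), and total counts gave 0.34. The hairpin lies in an exon of AC020916.1 on the minus strand at chr19:13836440-13836517, with both arms in capitals.
MIR27A: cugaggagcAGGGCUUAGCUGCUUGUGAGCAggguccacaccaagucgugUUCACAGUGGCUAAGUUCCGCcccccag

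miR-200c-3p, a miRNA of epithelial identity, had 67.8, 73.8 and 49.6 scaled reads with wild type and 95.5, 103.5 and 122.8 with m4, so every m4 library was higher. Its log2 change of 0.75 (SE 0.38) did not pass edgeR's test (adjusted p = 0.106), and it did with TMM, DESeq2 size factors and total counts. miR-423-5p (log2 -0.58, adjusted p = 0.196) kept 49.9%, and its reads also stand under miR-3184. miR-320d (log2 0.41) passed as DROSHA-responsive although miR-320 hairpins bypass DROSHA, and its wild-type libraries ran from 97.1 to 330.6. Neither miR-200c-3p nor miR-320d was called higher with wild type than with the empty plasmid, so no kept share was computed for them. miR-181a-5p (log2 -1.04, SE 0.36), let-7a-5p (log2 -1.18, SE 0.31) and miR-125a-5p (log2 -1.28, SE 0.40) were lower with m4 and kept 47.0%, 36.5% and 35.9% of their gain. Without m4 replicate 2, and likewise without wild type replicate 1, the calls of miR-125a-5p, miR-181a-5p and miR-27a-3p were lost. let-7a-5p kept its call without any 1 library but lost it with the summed reference (-1.02) and with total counts (-0.17), as did miR-125a-5p (-0.95 and -0.13) and miR-181a-5p (-0.75 and 0.08).

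miR-221 and miR-222 each come from an intron of MIR222HG on the X chromosome, have the same seed and act on the cell cycle inhibitor p27, yet differed in loss. miR-221-3p had 3152, 3056 and 1706 scaled reads with wild type and 134.1, 159.8 and 249.5 with m4 (log2 -3.87, SE 0.36). miR-222-3p had 4069, 3321 and 1844 with wild type and 710.4, 1687 and 1266 with m4 (log2 -1.33, SE 0.33, edgeR adjusted p = 0.000594). Both fell without overlap, and miR-221-3p kept 4.54% of its gain where miR-222-3p kept 37.2%. The log2 ratio of miR-221-3p to miR-222-3p within a library, which no scaling can move, was -0.37, -0.12 and -0.11 with wild type and -2.40, -3.40 and -2.34 with m4. It was also low with the belt deletion, at -1.83, -2.32 and -2.31, and lay at -0.79, -1.26 and -0.70 with the empty plasmid. The arms on the other side of the hairpins moved alike: miR-221-5p changed by -3.57 (SE 0.43) and miR-222-5p by -0.98 (SE 0.41). The pair was looked at with its values known, so no test is given. Both hairpins, on the minus strand at chrX:45746157-45746266 and chrX:45747015-45747124, are shown with the mature arms that RefSeq lists in capitals.
MIR221: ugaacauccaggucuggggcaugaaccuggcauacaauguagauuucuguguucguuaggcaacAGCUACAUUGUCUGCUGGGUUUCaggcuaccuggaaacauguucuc
MIR222: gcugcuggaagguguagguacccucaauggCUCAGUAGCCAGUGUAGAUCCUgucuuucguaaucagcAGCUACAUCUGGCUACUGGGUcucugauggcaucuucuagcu

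Differences within a cluster were also seen elsewhere among responsive hairpins whose starts lay within 10 kb on one strand. In the miR-23a cluster on chromosome 19, miR-24-2-5p changed by -2.55 (SE 0.62), miR-23a-3p by -1.34 (SE 0.37), miR-27a-3p by -0.76 and miR-27a-5p by -0.02. The log2 ratio of miR-24-2-5p to miR-27a-5p was -4.69, -5.61 and -5.10 with wild type and -6.42, -7.95 and -8.14 with m4, without overlap between these groups. It was -6.13, -6.37 and -7.05 with the belt deletion and -4.35, -7.31 and -4.67 with the empty plasmid, at a mean of 3.57 scaled reads for miR-24-2-5p with m4. In the miR-99b cluster, also on chromosome 19, miR-99b-5p changed by -2.01 (SE 0.42), miR-125a-5p by -1.28 (SE 0.40) and let-7e-5p by -0.77 (SE 0.39), which did not pass. In the miR-424 and miR-503 cluster miR-503-5p changed by -4.89 (SE 1.05) from a mean of 14.3 scaled reads, and miR-424-3p by -1.25 (SE 0.63), which did not pass. Other clusters were more even: miR-191-5p and miR-425-5p changed by -1.60 and -1.37, and miR-182-5p and miR-96-5p by -2.49 and -2.03.

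**Figure D3:**
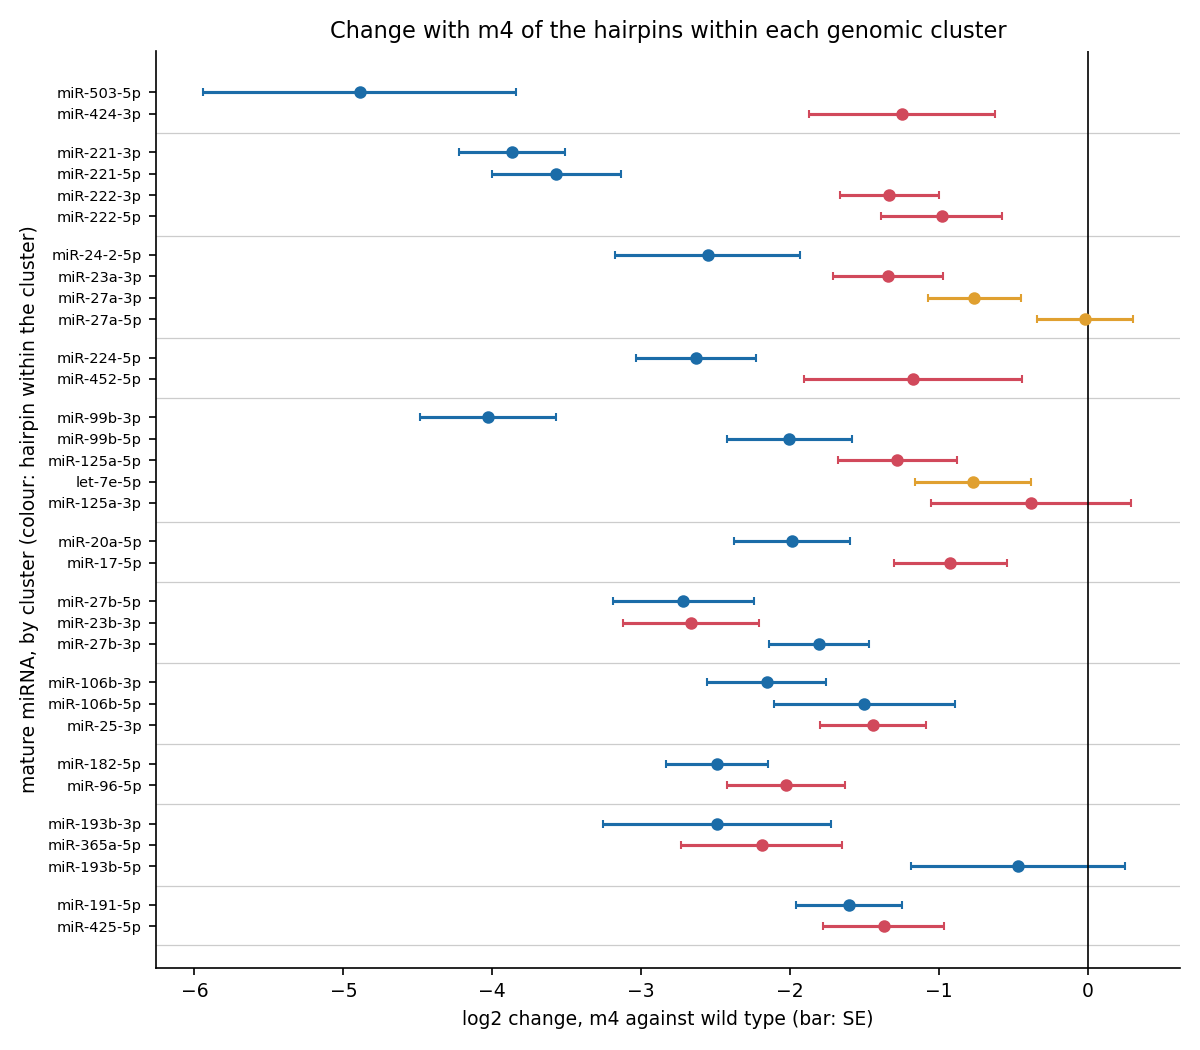
Log2 change from wild type to m4 (horizontal, bar: SE) of DROSHA-responsive miRNAs in 11 genomic clusters, ordered by how far their hairpins differ, with one colour per hairpin within a cluster. miR-221 and miR-222 are separated by 2.53 at their 3p arms, while miR-191-5p and miR-425-5p lie within one another's error.

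Members with 1 seed were compared next, since they share targets but not hairpins; seeds were read only for mature sequences that matched RefSeq. The 9 let-7 seed members (GAGGUAG, miR-98-5p included) ran from -4.33 for let-7i-5p to -0.25 for let-7c-5p. The log2 ratio of let-7i-5p to let-7a-5p was 4.86, 4.47 and 4.20 with wild type, 1.23, 1.43 and 1.48 with m4, 4.72, 4.69 and 4.57 with the belt deletion and 1.77, 1.10 and 1.58 with the empty plasmid. The m4 ratios thus lay in the range of the empty plasmid and the belt deletion ratios in that of wild type. The 3 miR-30 members with the seed GUAAACA among matched sequences ran from -4.46 (miR-30a-5p) to -1.93 (miR-30c-5p), and the family's unmatched 5p arms miR-30d-5p and miR-30b-5p changed by -3.13 and -2.20. Another 4 with the seed AAAGUGC ran from -3.22 (miR-93-5p) to -0.92 (miR-17-5p). miR-103a-3p and miR-107, both from PANK introns, changed by -3.05 and -3.02, a difference of 0.03, and their near-identical sequences may divide reads.

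By family, counts are to be read against 35.8% lower over all tested miRNAs and 78.7% over the responsive ones. The let-7 list had 7 of 9 tested members lower (median -1.96), with let-7g-5p at -2.14 and let-7f-5p at -2.45; with total counts 5 were lower. The miR-30 list had 7 of 8 lower (median -2.46), miR-30d-5p among them at -3.13; with total counts 4 were lower. In the miR-23, miR-27 and miR-24 list 7 of 8 were lower (median -2.18), with miR-24-3p at -2.68 and miR-27b-3p at -1.81; with total counts 4 were lower and 1 higher. The list of miR-10 relatives (with miR-99, miR-100 and miR-125) had 7 of 11 lower (median -1.69), and the cell cycle-linked miR-17-92 list with its paralogs 6 of 6 (median -1.57), against 4 with TMM, 4 without wild type replicate 1, wild type replicate 2 or m4 replicate 2, and 1 with total counts. The 3 members of the sensory and tumour-linked miR-183 cluster were lower: miR-182-5p by -2.49, miR-183-5p by -2.26 and miR-96-5p by -2.03; total counts called 2 of the 3.

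Small lists with all tested members lower were miR-378 (3, median -3.68), miR-28 with miR-151a (4, median -3.06), miR-15 and miR-16 relatives (2, median -3.74), miR-103 with miR-107 (2, median -3.04), miR-26 (2, median -2.71), miR-221 with miR-222 (4, median -2.45) and miR-148 with miR-152 (4, median -1.72). The median of the miR-15 and miR-16 relatives is that of miR-16-5p (-2.58) and miR-503-5p (-4.89, SE 1.05). miR-503-5p had means of only 14.3 scaled reads with wild type and 0.43 with m4. The responsive arms miR-16-2-3p (-0.66, a mean of 95.0 scaled reads with wild type) and miR-424-3p (-1.25) are not in that list and were not called. miR-34a-5p, a p53 target, was lower at a mean of 19.5 scaled reads with wild type (log2 -4.52, SE 0.94). In the miR-181 list 3 of 4 were lower (median -1.70) and in the miR-29 list 1 of 2, miR-29a-3p at -1.77. The miR-192, miR-194 and miR-215 list had 1 tested member, which was lower (-1.64), and the miR-130 and miR-301 list had 0 tested. The responsive arm miR-301a-5p is not in that list and was lower (-1.996), at a mean of 18.9 scaled reads with wild type. Its call was lost with total counts and without wild type replicate 1. Several of these counts depended on the setting. For miR-221 with miR-222 TMM called 3 and total counts 2. For miR-148 with miR-152 TMM, DESeq2 size factors and the summed reference called 2, total counts 1, and the fits without wild type replicate 1, wild type replicate 2 or m4 replicate 3 called 2 each. In the miR-181 list the summed reference, total counts and the fits without wild type replicate 1 or m4 replicate 2 called 1 each, and the fit without m4 replicate 1 called 2. The single call of the miR-192 list was lost with total counts and without wild type replicate 1, wild type replicate 2 or m4 replicate 1, and that of the miR-29 list with total counts. For miR-28 with miR-151a, miR-151a-5p did not pass the filter with total counts or DESeq2 size factors, and the other 3 were lower with both. Likewise miR-152-3p and miR-181a-2-3p did not pass the filter with total counts and so were not tested there.

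3 lists had no member lower. The miR-200 list had 0 of 4 called, with changes of 0.25 to 0.75 (median 0.61), at 10.8 to 72.5 scaled reads with wild type. At an unadjusted p under 0.05 edgeR passed 0, DESeq2 called 0, and total counts with edgeR called all 4 higher. Of the 4, miR-200a-3p and miR-429 were not DROSHA-responsive, and miR-200c-3p was not called higher with wild type than with the empty plasmid. miR-200a-5p, which was responsive but is not in the list, changed by -0.40 and was not called. The DROSHA-independent list, which set the scaling, had 0 of 14 called by edgeR (median 0.07); miR-1224-5p passed as higher at an unadjusted p under 0.05 and by DESeq2, and total counts called 10 higher. miRNA annotations derived from snoRNA or tRNA had 0 of 5 called by edgeR (median 0.23), 0 by DESeq2, 0 without p adjustment and 4 higher with total counts. Among markers of other cell types 1 of 4 was lower: the endothelial miR-126-3p, at 494.7, 411.9 and 272.7 scaled reads with wild type and 135.2, 125.7 and 188.1 with m4 (log2 -1.39, SE 0.33). It was DROSHA-responsive here, and the part of other cells in the results was not tested.

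**Figure D4:**
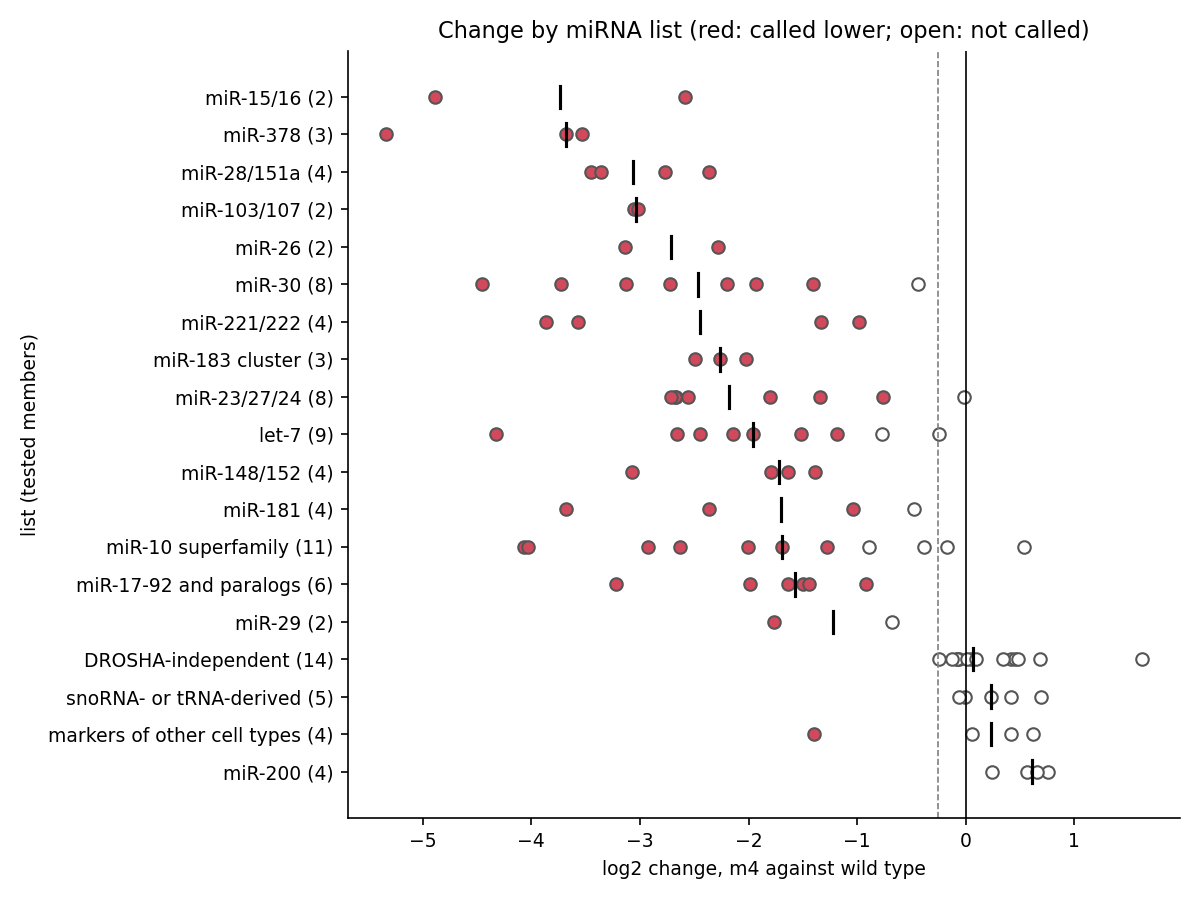
Log2 change from wild type to m4 of each tested miRNA, for lists with at least 2 tested members (number in brackets), with red points called lower, open points not called, a short black line at the list's median, a solid line at 0 and a dashed line at the median of all 318 tested, -0.25. The lists of miR-15 and miR-16 relatives, miR-378, miR-28 with miR-151a and miR-103 with miR-107 have the lowest medians plotted, -3.74 to -3.04, and the miR-200 list lies right of 0. The miR-15 and miR-16 median is that of miR-16-5p (-2.58) and miR-503-5p (-4.89), the latter at a mean of 0.43 scaled reads with m4.

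A pair of miRNAs with reads in each wild-type library had none with m4. miR-199b-5p had 8.32, 18.0 and 10.1 scaled reads with wild type and miR-203a-5p had 8.32, 19.8 and 2.25. Against the limit of 3 reads over the 3 m4 libraries, miR-199b-5p (26 wild-type reads) was 10.6-fold lower and miR-203a-5p (20 wild-type reads) 8.16-fold lower. The limit covers counting error in the m4 reads only, not in the wild-type reads, and the pair was picked for having 0 reads with m4. miR-203a-5p did not pass the filter with any other scaling. miR-199b-5p passed it only with the summed reference and with the reference without miR-320.

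The 12 miRNAs that were higher with m4 had few reads, and 1 reached 100 scaled reads with no overlap. miR-3182, an annotation in an intron of CDH13 at chr16:83508346-83508408, had 141.5, 226.7 and 113.8 scaled reads with wild type and 533.4, 267.0 and 422.3 with m4. Every m4 library was higher, with a log2 change of 1.35 (SE 0.37, edgeR adjusted p = 0.00212). With the empty plasmid it was already present, at 111.3, 102.9 and 98.9. None of the 12 was in the DROSHA-responsive set. The others ran from 0.93 (miR-6842-3p) to 2.55 (miR-5091). Their number hung on single libraries: 28 without m4 replicate 1, 3 without m4 replicate 3, 6 without wild type replicate 2 and 7 without wild type replicate 3.

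The balance between the arms of 1 hairpin needs no scaling, and 46 hairpins had both arms tested. In 4 of them (8.7%) the ratio of 5p to 3p reads differed between m4 and wild type by limma with Benjamini-Hochberg adjustment, and 9 passed at an unadjusted p under 0.05 (19.6%). For mir-30a the 3p share of reads was 14.3%, 5.83% and 10.1% with wild type and 38.8%, 52.9% and 44.1% with m4, without overlap (limma adjusted p = 0.00095). The share was 34.7% to 39.3% with the empty plasmid and 65.4% to 76.0% with the belt deletion. Both arms were lower with m4, miR-30a-3p less so: it had 225.9, 156.5 and 142.0 scaled reads with wild type and 40.8, 74.8 and 81.9 with m4 (log2 -1.41, SE 0.34).

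For mir-99b the share moved the other way. The 3p arm held 18.9%, 24.5% and 30.04% of reads with wild type and 4.08%, 6.06% and 8.82% with m4 (limma adjusted p = 0.0129), with 5.26% to 9.38% for the empty plasmid. The hairpin lies in an intron of SPACA6 at chr19:51692612-51692681, with both arms in capitals.
MIR99B: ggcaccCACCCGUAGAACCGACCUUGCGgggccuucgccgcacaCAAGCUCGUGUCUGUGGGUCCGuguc

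For mir-203a the 3p share was 93.7%, 91.5% and 97.8% with wild type and 100% in each m4 library, where the 5p arm had no reads. That arm passed the filter through groups in which it had reads, so the difference is given as values without its p. miR-203b lies on the opposite strand of that locus, and strand use in the counting is not given in the sources used here, so its reads cannot be told apart from these. For mir-6735 the 3p share was 37.5%, 57.1% and 57.9% with wild type and 23.3%, 20.9% and 29.6% with m4 (limma adjusted p = 0.0433). The share was 26% to 37.8% with the empty plasmid and 30% to 33.3% with the belt deletion, so wild type had the highest shares. Neither arm of mir-6735 was DROSHA-responsive, and its 5p arm had a mean of only 12.5 scaled reads with wild type. Of the 4 hairpins only mir-30a was called in every alternative in which it was tested; mir-99b lost the call in 3, mir-203a in 5 and mir-6735 in 8, and without wild type replicate 2 the count was 1.

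**Figure D5:**
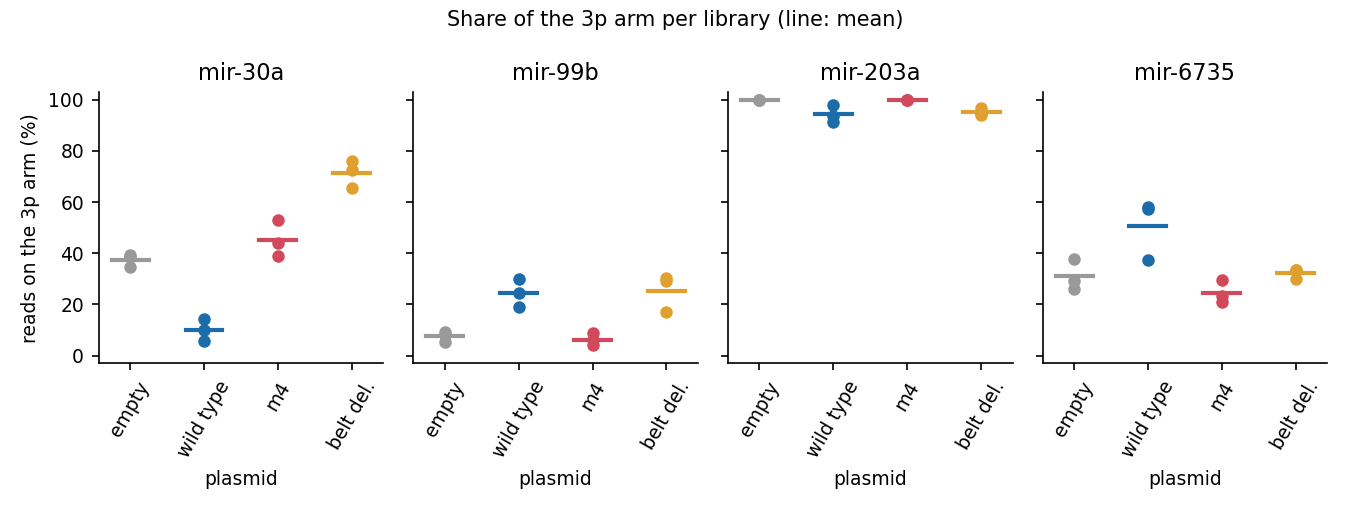
Share of a hairpin's reads on the 3p arm (%) per library, for the 4 hairpins called, with empty plasmid in grey, wild type in blue, m4 in red and the belt deletion in yellow, and a line at the mean of 3. In mir-30a m4 (45.3%) is above wild type (10.1%), and in mir-99b m4 (6.32%) is below wild type (24.5%) and near the empty plasmid (7.51%).

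The median change of the responsive set was further below 0 for 5p than for 3p miRNAs. Their quartile ranges overlapped, at -2.73 to -1.31 for 5p and -2.67 to -1.04 for 3p. Of 80 responsive 5p miRNAs 65 were lower (median -2.09), and of 61 responsive 3p miRNAs 46 (median -1.68). Taking 1 miRNA, the most abundant, from each of 88 responsive hairpins that matched RefSeq and had a position of their own, the 49 led by the 5p arm had a median change of -2.03 and the 39 led by the 3p arm -1.39. These hairpins share libraries and scaling, and many share a cluster or family, so the values are descriptions without a test. With a first base of U the median was -1.81 (50 hairpins), with A -1.94 (18), with C -1.47 (12) and with G -1.87 (4).

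Properties of the hairpin related weakly to the loss. The GC content of the RefSeq hairpin had a median of 53.2%, and its correlation with the log2 change across the 88 hairpins was 0.20 (Pearson) or 0.30 (Spearman). The 44 hairpins of lower GC content had a median change of -1.999 and the 44 of higher GC content -1.62. Hairpin length (Pearson -0.11), RNAfold folding energy per base (-0.14) and the distance between the arms (-0.19, 74 hairpins) gave weaker values still, as did unpaired bases in the stem (-0.04). A loop with UGU or GUG, searched on the RNA strand between the arms where the letters may overlap, is a feature that DGCR8 is known to favour. It was present in 44 of 74 responsive loops (59.5%) and in 340 of all 739 RefSeq loops (46.0%), and the median change was -1.75 with it and -1.80 without. By host, 17 hairpins in exons had a median of -1.68, 58 in introns -1.81 and 13 outside annotated transcripts -1.68.

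The belt deletion was compared with m4 in the same fit. m4 gave fewer reads than the belt deletion for 84 of 318 miRNAs (26.4%) and more for 4 (1.26%): miR-4521, miR-5010-3p, miR-3182 and miR-4645-3p, named because they are so few. For let-7i-5p, m4 was lower by -4.15 on the log2 scale (edgeR adjusted p = 8.36e-15), for miR-378c by -3.56, for miR-378a-3p by -3.48, for miR-21-5p by -3.33 and for miR-10a-5p by -2.73. Against wild type the belt deletion had 30 miRNAs lower (9.43%) and 10 higher (3.14%), and it was within 0.20 of wild type for these 5. For miR-30a-5p, miR-30e-5p and miR-99b-3p the belt deletion was also below wild type, by -2.51, -2.26 and -1.87, and m4 lay below it by a further -1.94, -1.47 and -2.16. miR-7-5p differed in this respect: the belt deletion had 1612, 1900 and 1546 scaled reads, and m4 was not distinguishable from it (log2 -0.48, edgeR adjusted p = 0.323). miR-27a-5p, which m4 left near wild type, rose with the belt deletion to 1884, 2223 and 1410 (log2 1.30 over wild type, edgeR adjusted p = 0.00201). The 2 mutants share the wild-type libraries in these values.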

How the data were processed

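The deposited table gives read counts, not normalised, for each mature miRNA under its hairpin. cutadapt, Bowtie2 and hg38 are named, per the submitters' processing notes; the counter, miRNA annotation, multi-mapping and strand use are not given in the sources used here. Per the labels' protocols, a 15% gel of 10 µg TRIzol-extracted RNA gave the 19 to 24 nt fraction, which was cloned with a NEBNext kit.

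Blank cells (42.7% of 16908) were read as 0. A name under several hairpins kept the line with most reads, and 9 name pairs whose reads matched (within 5 reads or 5%) were merged, leaving 1277 miRNAs with 101886 to 332081 reads per library. Size factors were the median ratio over 5 DROSHA-independent features that had 20 or more reads in each library. edgeR 4.0.16 (quasi-likelihood, robust, R 4.3.3) was fitted to all 12 libraries in 4 groups, over 318 miRNAs kept by filterByExpr. The SE given with an edgeR log2 change was derived from its test, as the absolute change over the square root of the F statistic. Arm ratios, log2((5p + 0.5)/(3p + 0.5)), were tested with limma 3.58.1. Hairpins were folded with RNAfold 2.7.2 and placed with GENCODE 29; 241 of 277 tested hairpins and 278 of 318 mature miRNAs matched RefSeq. Scripts were tested on simulated data. Sequence flanking the hairpins was not used here.

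Named miRNAs were the 10 largest falls and up to 6 rises among calls without overlap whose higher group averaged at least 100 scaled reads, the 10 most abundant with wild type, the 8 that lost least among responsive miRNAs averaging at least 100 scaled reads with wild type or m4, the hairpins called for arm ratio, and list members. Members and lists were chosen with earlier results of these data known, and miRNAs named within clusters, seed groups and elsewhere beyond it were picked with their values in view. Alternatives covered scaling, reference, test (DESeq2 1.42.0), filter, libraries, replicate block, collapsing and leaving out each library.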

Additional observations from a re-analysis of the deposited data

How the results depend on the processing

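The count of miRNAs lower with m4 than with wild type stayed within 1.5 times of 114 except with total counts (60). DESeq2's test gave 108 lower and 12 higher, and leaving out 1 library gave 94 to 124 lower and 3 to 28 higher. In all 6 such fits 85 of the 114 and 1 of the 12 were called, and 60 and 4 were called under all 7 scalings. The 12 higher became 42 with TMM, 38 with DESeq2 size factors, 133 with total counts, 7 with the reference without miR-320, 4 without miR-484, 6 without a filter and 6 with only the 2 groups fitted. The share of calls that were lower was 90.5% as reported, 70.2% with TMM, 72.1% with DESeq2 size factors and 31.1% with total counts. Without m4 replicate 2 there were 99 lower and 9 higher, of which 94 and 8 were among the 114 and 12.

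Against the belt deletion, 84 lower and 4 higher became 47 and 121 with total counts, 7 higher with TMM and 9 higher with DESeq2 size factors; leaving out 1 library gave 71 to 82 lower and 2 to 8 higher. The 4 hairpins with a changed arm ratio became 2 with a pseudocount of 1, 2 with at least 100 reads per library, and 1 to 3 without 1 library. With total counts the changes of miR-320a-3p (0.82), miR-320b (0.84), miR-27a-5p (1.01), miR-27a-3p (0.34) and miR-181a-5p (0.080) were above 0. The cause of these shifts was not tested.

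The replicate block gave 109 lower and 9 higher, all among the 114 and 12, and 3 hairpins with a changed arm ratio. Same-numbered wild-type and m4 libraries correlated at -0.03, 0.13 and 0.13 in their deviations from group means, and differently numbered ones at -0.161 to 0.0349. Deviations from a mean of 3 libraries constrain one another, so these values cannot decide whether the numbers pair the samples. Low depth, at 101886 reads in the smallest library after collapsing, limits what can be said of miRNAs under about 20 scaled reads.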
